A study of Homo sapiens with 7 samples.

Results

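A set of 10 named noncoding RNA genes is described here across 7 Hodgkin lymphoma (HL) cell lines. It comprises the miRNA host transcripts MIR155HG, MIR17HG and DLEU2, and the long noncoding RNAs DLEU1, PVT1, GAS5, NEAT1, MALAT1, H19 and MEG3. Every probe set that the array's annotation gives to 1 of these genes was taken, provided that it carried no other gene than small RNAs encoded within the member. This gave 56 probe sets for 10 genes, of 54675 probe sets on the array and 19789 genes read in all. One further DLEU2 probe set, 215629_s_at, is shared with DLEU2L and was left out of the values per gene.

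The study examined homeobox gene activity in HL and profiled U-HO1, L-540, SUP-HD1, HDLM-2, L-428, KM-H2 and L-1236 on the Affymetrix HG U133 Plus 2.0 chip. All are established lines grown from HL patients, and each gave 1 array, so the lines carry no replicate and no test between them was possible, nor can a change in RNA per cell be told apart from a change in the share of cells that make it. Values are log2 levels after RMA, a procedure that corrects background and equalises the distribution of the arrays, and a difference of 1 is a doubling. Background on each array was the 95th percentile over 107 probe sets for olfactory receptors, genes that lymphoid cells are not known to use. SUP-HD1 had the lowest background (4.49) and L-1236 the highest (5.59). The disagreement among probe sets of one gene (SD, 0.44 to 0.89 per array) stood in for technical error, and lines are called apart where they differ by more than the root of the summed squares of both SDs. This limit is lenient, only 1 SD of a difference, so technical error alone can put pairs of lines past it. The word apart is a description and not a test. Of 21 pairs of lines, 4 were apart for GAS5 and MEG3 and 16 for DLEU2.

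A pair of arrays stood away from the others. L-1236 had the highest background and 8622 genes above it, against 10569 to 11650 in the other lines. U-HO1 had the widest spread between probe sets (SD 0.89), a 3′ signal of beta-actin that exceeded the 5′ signal by 2.11, against 0.06 to 0.54 in the other lines, and an 18S rRNA signal of 11.12, against 5.23 to 7.06. GAPDH showed no such gap, with a 3′ excess of 0.17 in U-HO1 and -0.14 to 0.18 elsewhere. The arrays came from a pair of laboratories, and which line was run in which is not given in the sources used here. Of 8 Hodgkin/Reed-Sternberg cell markers, 7 or 8 exceeded background in every line. The exceptions were CD30 (TNFRSF8) in SUP-HD1, at 4.36, and TRAF1 in L-1236, at 4.97. The B-cell markers MS4A1 (CD20) and CD79B stayed below background in all 7 lines, and 1 to 3 of 5 B-cell markers exceeded it per line. Of 4 T-cell markers, 0 to 3 exceeded background per line, with CD3D in KM-H2 (8.89) and CD2 in HDLM-2 (8.95) and L-540 (7.28) the highest readings. Of 4 myeloid markers, 0 to 2 exceeded background per line. These were CSF1R in L-540 (7.65), KM-H2 (6.63), SUP-HD1 (5.80) and HDLM-2 (5.24) and CD14 in KM-H2 (6.02), while LYZ and MPO were below it in every line. Of 4 fibroblast markers only COL1A1 exceeded it in all.

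A miRNA host transcript is a long RNA from which a hairpin is cut and trimmed to a mature miRNA, which then pairs through its seed, bases 2 to 8, with messenger RNAs and lowers their translation or stability. MIR155HG, also called BIC, was first described as a gene activated by retroviral insertion in chicken lymphomas, and HL cells are known for high amounts of it and of miR-155. MIR17HG carries the cluster of miR-17 and its relatives, a group of miRNAs that MYC and E2F factors activate and that acts as an oncogene in lymphoid cells. DLEU2 carries miR-15a and miR-16-1 in a region of the long arm of chromosome 13 that is often lost in chronic lymphocytic leukemia. The arrays read the host transcripts and not the mature miRNAs.

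The mature miRNAs of the hosts are printed here from RefSeq (GRCh38.p14), because their seeds decide which target list belongs to which host. The seed is in capitals and the rest in lower case. MIR155HG on chromosome 21 yields a miRNA whose seed occurs in 1 of the 2370 mature miRNAs of that table, itself.
miR-155-5p: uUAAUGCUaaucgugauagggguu
MIR17HG on chromosome 13 yields 6 miRNAs with 4 seeds. The first of these seeds is found in miR-17 and miR-20a, and also in miR-106b and miR-93 from an intron of MCM7, a replication helicase gene on chromosome 7.
miR-17-5p: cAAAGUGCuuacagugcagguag
miR-20a-5p: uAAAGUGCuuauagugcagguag
miR-106b-5p: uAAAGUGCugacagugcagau
miR-93-5p: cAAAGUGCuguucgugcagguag
The seed of miR-19a equals that of miR-19b, whereas miR-18a differs from miR-17 within the seed. The miR-92a seed recurs in miR-25, which MCM7 also carries.
miR-18a-5p: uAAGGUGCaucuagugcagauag
miR-19a-3p: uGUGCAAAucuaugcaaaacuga
miR-19b-3p: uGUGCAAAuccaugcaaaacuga
miR-92a-3p: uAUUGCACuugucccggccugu
miR-25-3p: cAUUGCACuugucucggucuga
The miRNAs of DLEU2 share 1 seed with those of SMC4, a condensin gene on chromosome 3 that carries miR-15b and another copy of miR-16.
miR-15a-5p: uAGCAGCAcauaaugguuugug
miR-16-5p: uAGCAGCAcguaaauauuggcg
miR-15b-5p: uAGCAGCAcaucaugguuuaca
So MCM7 is another source of the miR-17 and miR-92a seeds, but not of those of miR-18a and miR-19, and SMC4 of the DLEU2 seed. Their levels are set beside MIR17HG and DLEU2 below. They are not the only other sources. Among the 2370 mature miRNAs, 8 have the miR-17 seed, 6 that of miR-92a and 7 that of miR-15a.

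All 10 members exceeded background in at least 1 line, and 6 did so in all 7 lines, namely MIR155HG, MIR17HG, DLEU1, GAS5, NEAT1 and MALAT1. Of all genes with background exceeded in some line, 47.2% did so in all. The span over the lines reached 2 for 6 of the 10 members (MIR155HG, MIR17HG, DLEU2, PVT1, NEAT1 and MALAT1), against 50.1% of 14511 genes, so the members varied about as often as other genes did. Without L-1236 and U-HO1 the count was 4 of 10, against 30.7%, and MIR17HG and DLEU2 fell short. A single line stood apart from the other 6 for 1 of the 10 members, PVT1, against 12.4% of genes. The plot of all members shows these levels line by line. Different probe sets bind with different strength, so levels are compared between lines and not between genes.

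**Figure D1:**
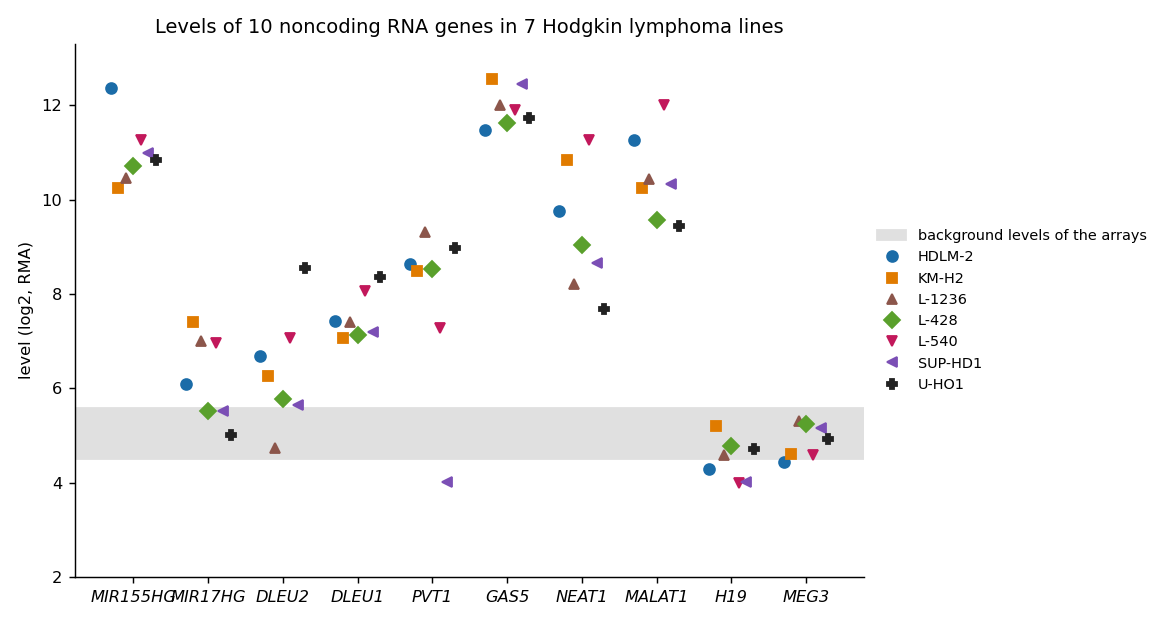
Level (log2, RMA) of each of 10 noncoding RNA genes at its probe set with the highest mean, 1 point per line, with the grey band spanning the background levels of the 7 arrays from 4.49 to 5.59. MIR155HG lay far above the band in all 7 lines, PVT1 dropped below it in SUP-HD1 alone, and MEG3 and H19 lay in or below it.

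MIR155HG was far above background in every line and highest in HDLM-2. Its single probe set, 229437_at, read 12.36 in HDLM-2, 11.26 in L-540, 10.98 in SUP-HD1, 10.85 in U-HO1, 10.72 in L-428, 10.46 in L-1236 and 10.24 in KM-H2. HDLM-2 was apart from every other line, by 1.10 from L-540 and by 2.12, or 4.35-fold, from KM-H2. The remaining 6 lines formed a run in which no neighbours differed beyond their spread. They spanned 1.02, and 2 of their pairs were apart, L-540 from KM-H2 and SUP-HD1 from KM-H2. With 1 probe set, the level of this gene could not be checked against a second reading on the same array.

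The promoter of MIR155HG is shown because the activators of this gene are among the factors most active in HL cells, and its sites can be set beside their levels. The RefSeq window runs from 250 bases before to 50 after the start site, at chr21:25561895-25562194 on the plus strand (GRCh38.p14). Capitals mark the interferon response element motif (GAAA, 2 bases of any kind, GAAA) at position -213 from the start and the AP-1 motif TGANTCA at -60.
MIR155HG promoter: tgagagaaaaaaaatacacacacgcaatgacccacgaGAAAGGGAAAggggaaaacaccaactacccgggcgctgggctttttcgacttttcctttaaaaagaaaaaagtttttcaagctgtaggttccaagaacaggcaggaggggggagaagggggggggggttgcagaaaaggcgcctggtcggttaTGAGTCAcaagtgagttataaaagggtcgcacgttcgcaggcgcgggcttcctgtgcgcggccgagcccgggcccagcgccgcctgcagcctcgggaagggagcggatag
Both strands were searched, and TGANTCA and TTCNNNGAA each matched on both at the same place. The interferon motif occurs in 3.57% of the 35116 promoter windows of the table and TGANTCA in 7.71%. The STAT motif TTCNNNGAA, present in 7.66% of windows, was found at -125, and a TATA box (TATAAA, in 11.5%) at -44. The kappaB motif, in 11.3% of windows, was not matched in this stretch. Of the 8 members that matched the promoter table, MIR155HG alone held the AP-1, interferon or STAT motif. No window was matched for NEAT1 and PVT1.

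Genes for 12 known activators of MIR155HG were measured, and all exceeded background in at least 1 line, 9 of them in all 7. Their range reached 2 for 7 of 12, with a median of 2.28, against 50.1% of all genes above background and their median of 2.00. FOSL2, an AP-1 subunit, had 7.83 in L-540, against values below background in L-428, L-1236 and U-HO1. REL, the NFkB subunit gained in many HL cases, read 10.60 in U-HO1, 9.70 in KM-H2, 9.41 in L-428, 8.36 in L-1236, 7.25 in SUP-HD1, 6.72 in L-540 and 6.23 in HDLM-2. JUNB, the AP-1 factor typical of HL cells, was 10.87 in L-540, 10.36 in KM-H2, 9.86 in HDLM-2, 9.77 in SUP-HD1, 9.12 in L-428, 8.05 in L-1236 and 7.50 in U-HO1. IRF4, an interferon regulatory factor that marks activated B-cells, spanned only 1.18, between 10.79 in HDLM-2 and 9.61 in L-1236, and MYB read 9.32 in U-HO1 and 6.71 in HDLM-2.

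HDLM-2, the line with most MIR155HG, thus had the lowest REL reading and the highest IRF4 reading. For neither gene was it apart from the next line, since L-540 had REL at 6.72 and U-HO1 had IRF4 at 10.57. Over the 7 lines, MIR155HG and REL had r = -0.72 (exact two-sided permutation p = 0.045, or 0.217 after adjustment) and rho = -0.75 (exact p = 0.0663, or 0.417 after adjustment). HDLM-2 and KM-H2 lay farthest from the MIR155HG median, and without them r was -0.51. With IRF4, r was 0.67 (exact p = 0.134, or 0.335 after adjustment), rho was 0.61 (exact p = 0.158) and r without that pair was 0.79. The value for IRF4 changed with the probe set read. At the most variable probe set r was 0.08 with IRF4 and -0.60 with REL, and with the mean of all probe sets 0.35 and -0.61. With JUNB, r was 0.27 (exact p = 0.585, or 0.846 after adjustment), rho was 0.29 (exact p = 0.556) and r without that pair was 0.76. All p-values for relations below are of the same kind. In all, 15 relations between members and partners were computed, and none passed an adjusted p of 0.05 in Pearson's or Spearman's form, while 3 had an unadjusted p below it for r.

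Of 11 measured transcripts known as miR-155 targets, 10 exceeded background in at least 1 line. All 10 had a range of at least 2, against 50.1% of all genes, with a median range of 3.68, against 2.00. Several of these ranges, among them those of TP53INP1, MEIS1 and MAF, run down to values below background. With such values raised to background the count was again 10 of 10, against 36.9% of all genes, and the median range was 3.0, against 1.67. The list is short and was chosen with earlier results known, so nothing is read from this for the targets as a class. SPI1 (PU.1), a factor lost in HL cells, was below background in all lines. SOCS1, the brake on JAK-STAT signalling, was 10.12 in L-540, 9.21 in L-428, 8.83 in SUP-HD1, 8.51 in KM-H2, 8.48 in HDLM-2, 7.52 in L-1236 and 2.87 in U-HO1, the single line below background. TP53INP1, a p53 target, showed the opposite place of U-HO1, with 8.97 there, 5.52 in SUP-HD1 and values below background in the other 5 lines. MEIS1, a homeobox gene, was highest in KM-H2 at 7.84 and in U-HO1 at 7.15, read 5.93 in L-428 and 4.65 in SUP-HD1, and was below background in HDLM-2 (2.61), L-540 (2.65) and L-1236 (4.58). MAF, a T-helper cell factor, exceeded background only in KM-H2 (7.64), HDLM-2 (7.52) and L-1236 (6.0). MIR155HG was far above background in all 7 lines, whatever these genes read, and its relation with them was not tested.

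By likeness of pattern, the genes closest to MIR155HG over the 7 lines, among 7272 genes with a range of at least 2, were OR3A1, an olfactory receptor gene (r = 0.97), TPTE2P6, a pseudogene (r = 0.97), and GCHFR, the feedback regulator of GTP cyclohydrolase (r = 0.96). GCHFR read 8.19 in HDLM-2, 6.45 in L-540 and 5.42 in SUP-HD1, and below background in the others. OR3A1, of the gene family that sets the background, exceeded it only in HDLM-2, at 5.91. Altogether 43 genes had r above 0.9 with MIR155HG, and all values come from the same 7 arrays.

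MIR17HG was high in KM-H2, L-1236 and L-540 and low in L-428, SUP-HD1 and U-HO1. At 232291_at it read 7.41 in KM-H2, 7.0 in L-1236, 6.97 in L-540, 6.08 in HDLM-2, 5.52 in L-428, 5.52 in SUP-HD1 and 5.0 in U-HO1. No pair within the first 3 lines was apart, and a step of 0.89 separated L-540 from HDLM-2. With quantile normalization applied again, L-1236 was the highest line, at 1.36 over the mean of the lines, against 1.03 in KM-H2. KM-H2 exceeded U-HO1 by 2.41, or 5.31-fold. In U-HO1 the background was 4.59, so MIR17HG exceeded it there by less than the spread of 0.89 on that array. The second probe set, 233636_at, was below background in all lines.

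**Figure D2:**
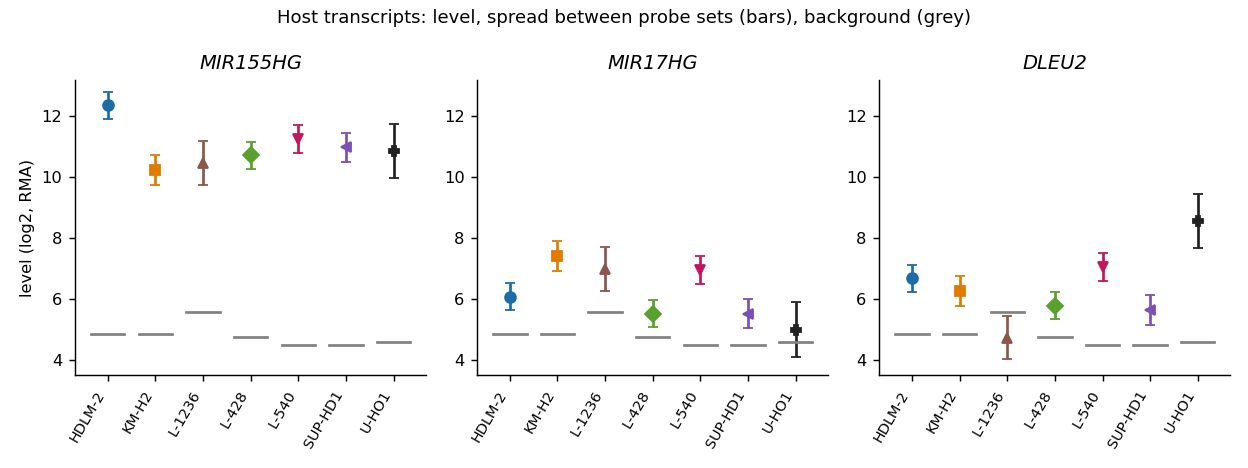
Level (log2, RMA) of MIR155HG, MIR17HG and DLEU2 in each line, with bars of 1 SD among probe sets of one gene on that array and grey ticks at the array's background. HDLM-2 was highest for MIR155HG, KM-H2 for MIR17HG and U-HO1 for DLEU2, and DLEU2 was below background in L-1236.

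MYC and E2F1, known activators, were set beside MIR17HG. MYC was 12.10 in L-540, 10.82 in HDLM-2, 10.60 in L-428, 10.26 in SUP-HD1, 10.11 in U-HO1, 9.74 in L-1236 and 9.35 in KM-H2. MIR17HG as deposited read highest in KM-H2, which was not apart from L-1236 or L-540. The relation of MIR17HG with MYC had r = -0.05 (exact p = 0.933, or 0.933 after adjustment) and rho = -0.31 (exact p = 0.512), and r was 0.26 without KM-H2 and U-HO1, the outermost lines. E2F1 spanned only 0.94 over the lines and had r = -0.16 (exact p = 0.725, or 0.846 after adjustment) and rho = -0.16 (exact p = 0.733), and r was -0.78 without the same pair. E2F2 was highest in U-HO1 at 8.26, and the others ran between 5.43 and 6.51, E2F3 lay between 6.55 and 8.34, and MYCN exceeded background in 2 lines, with 4.51 in SUP-HD1 and 4.71 in U-HO1. MCM7, the host of miRNAs with the miR-17 and miR-92a seeds, was 10.39 in L-428, 10.07 in KM-H2, 9.69 in SUP-HD1, 9.59 in L-1236, 9.54 in L-540, 9.22 in HDLM-2 and 9.12 in U-HO1. Its relation with MIR17HG had r = 0.21 (exact p = 0.622, or 0.846 after adjustment) and rho = 0.29 (exact p = 0.537), and r was -0.48 without KM-H2 and U-HO1. L-428 and SUP-HD1 combined low MIR17HG readings with MCM7 at 10.39 and 9.69. MIR155HG and MIR17HG had r = -0.24 (exact p = 0.658, or 0.846 after adjustment), rho = -0.40 (exact p = 0.381) and r = 0.01 without HDLM-2 and KM-H2.

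Of 6 measured transcripts known as targets of the MIR17HG miRNAs, 4 exceeded background in at least 1 line and 3 of these had a range of at least 2, against 50.1% of all genes. BCL2L11 (BIM), a killer of the BCL2 family, reached 9.07 in L-1236, 8.07 in U-HO1 and only 3.66 to 5.91 elsewhere. These are a line with much and the line with least MIR17HG. CDKN1A (p21) ran between 9.65 in SUP-HD1 and 6.03 in L-428, a pair of lines with the same MIR17HG level. THBS1 was above background in HDLM-2 alone, at 5.78. The genes most like MIR17HG in pattern were LINC00908 (r = 0.95) and CDK15 (r = 0.93), each above background in 2 lines, and RNPEP, an aminopeptidase (r = 0.92), which read 10.13 in KM-H2 and 7.83 in U-HO1.

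DLEU2 was read by 9 probe sets, of which 5 exceeded background in at least 1 line and 0 did so in all. At 1556821_x_at, the brightest, it was 8.56 in U-HO1, 7.07 in L-540, 6.69 in HDLM-2, 6.27 in KM-H2, 5.78 in L-428, 5.64 in SUP-HD1 and 4.74 in L-1236, where it was below background. U-HO1 was apart from all other lines, by 1.49 from L-540. With L-1236 set at its background of 5.59, the span was at least 2.97. Without L-1236 and U-HO1 it was 1.43, and the part of the high background of L-1236 and of the 3′ excess of beta-actin in U-HO1 (2.11) was not tested. A second probe set, 1556820_a_at, gave the same top pair, with 6.75 in U-HO1 and 5.96 in L-540, and had L-1236, L-428 and SUP-HD1 below background.

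The other DLEU2 probe sets ordered the lines differently. At 216870_x_at, where L-1236 was again the single line below background, L-428 was highest with 7.43, followed by HDLM-2 with 6.92, SUP-HD1 with 6.56, L-540 with 6.14, U-HO1 with 5.92, KM-H2 with 5.47 and L-1236 with 5.23. The probe set shared with DLEU2L likewise had L-428 highest, at 7.51, and L-1236 lowest, at 3.90. At 242854_x_at only L-540 (5.72) and HDLM-2 (5.43) exceeded background, and at 1563229_at only U-HO1 did, with 5.50, while the others read 2.82 to 3.36. U-HO1 was the highest line at 3 of the 5 probe sets above background, and L-1236 exceeded background at none. The 3 brightest probe sets had pairwise r between -0.30 and 0.92 over the lines, with a median of 0.04. The order of the lines for DLEU2 thus differed between its probe sets.

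**Figure D3:**
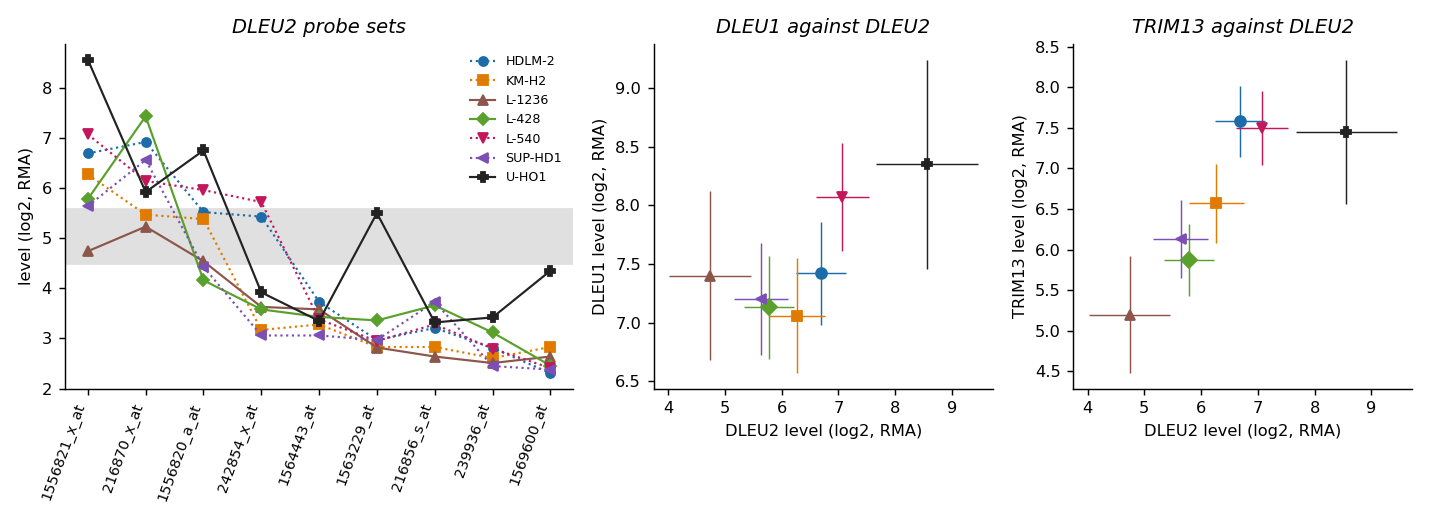
Left, level (log2, RMA) of each line at the 9 probe sets of DLEU2, by mean level, with background levels as the grey band. Middle and right, DLEU1 and TRIM13 against DLEU2 at 1556821_x_at, 1 point per line with bars of 1 SD between probe sets, where U-HO1, L-540 and L-1236 span most of the range.

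DLEU1 starts beside an inner start site of DLEU2 and runs the other way, and both windows of the promoter table overlap. The shared 227 bases are printed because this stretch lies between and around both starts, at chr13:50081992-50082218 (GRCh38.p14), written on the plus strand, which is that of DLEU1. The DLEU1 start follows the DLEU2 start by 128 bases.
DLEU1/DLEU2 shared window: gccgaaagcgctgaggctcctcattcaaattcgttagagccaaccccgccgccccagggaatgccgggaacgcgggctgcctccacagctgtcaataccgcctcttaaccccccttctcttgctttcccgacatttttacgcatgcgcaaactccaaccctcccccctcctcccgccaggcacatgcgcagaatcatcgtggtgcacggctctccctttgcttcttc
Another start of DLEU2, at the far end of the gene, has a window at chr13:50125492-50125791 on the minus strand. It holds the E-box CACGTG, the site of MYC (in 7.26% of windows), at position -230, a TATA box at -33 and the kappaB motif from base 35 after the start. Such matches are letters in a window and not shown to be sites.

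DLEU1 varied less than DLEU2. Its probe set 205677_s_at read 8.35 in U-HO1, 8.07 in L-540, 7.42 in HDLM-2, 7.40 in L-1236, 7.20 in SUP-HD1, 7.13 in L-428 and 7.06 in KM-H2, a span of 1.29 or 2.45-fold. U-HO1 was apart from SUP-HD1, L-428 and KM-H2 and from no other line, and L-540 exceeded HDLM-2 by 0.65, just over the spread of 0.64. U-HO1 and L-540 were thus the top lines for both DLEU1 and DLEU2 in the deposited values. With quantile normalization applied again, L-1236 passed L-540 for DLEU1, at 0.49 over the mean of the lines, against 0.44. The relation between both genes had r = 0.79 (exact p = 0.0264, or 0.198 after adjustment) and rho = 0.64 (exact p = 0.139, or 0.417 after adjustment). It rests on U-HO1 and L-540, since r was -0.18 without them. Set against 216870_x_at of DLEU2, DLEU1 had r = -0.20 over the 7 lines, and against 1556820_a_at 0.84.

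TRIM13, which encodes a ubiquitin ligase and lies inside the DLEU2 gene, read 7.58 in HDLM-2, 7.50 in L-540, 7.45 in U-HO1, 6.57 in KM-H2, 6.13 in SUP-HD1, 5.87 in L-428 and 5.20 in L-1236, where it was below background like DLEU2. The relation had r = 0.86 (exact p = 0.0111, or 0.167 after adjustment), rho = 0.82 (exact p = 0.0341, or 0.417 after adjustment) and r = 0.94 without U-HO1 and L-1236. Read at other DLEU2 probe sets, r was 0.84 at 1556820_a_at and 0.16 at 216870_x_at. Overlapping genes were not separated here by strand, and the positions of the probes were not analysed.

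Of 6 neighbours in this region, 4 exceeded background in at least 1 line and 3 of them had a range of at least 2, against 50.1% of all genes. With values below background raised to it, only RCBTB1 reached 2, at 3.57, while TRIM13 spanned 1.99 and SPRYD7 1.87. RCBTB1 read 8.78 in U-HO1, 7.61 in HDLM-2, 7.02 in KM-H2, 6.64 in L-540, 5.93 in L-428, 5.21 in SUP-HD1 and 4.43 in L-1236, where it was below background. Its r with DLEU2, outside the 15 relations and given without a test, was 0.93 at 1556821_x_at, 0.86 at 1556820_a_at and 0.09 at 216870_x_at over 7 lines, and 0.74 at 1556821_x_at without U-HO1 and L-1236. SPRYD7 was highest in HDLM-2 (6.38) and below background in KM-H2, L-1236 and L-540, and RNASEH2B spanned 1.05. KCNRG and DLEU7 were below background in all lines. SMC4, host of miR-15b and miR-16, was 10.67 in U-HO1, 10.60 in HDLM-2, 10.22 in L-428, 10.02 in KM-H2, 9.91 in SUP-HD1, 9.79 in L-540 and 9.41 in L-1236. Its relation with DLEU2 had r = 0.73 (exact p = 0.0579, or 0.217 after adjustment) and rho = 0.61 (exact p = 0.167), and it rests on U-HO1 and L-1236, since r was 0.03 without them.

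The 8 measured targets of miR-15 and miR-16 all exceeded background in at least 1 line, 7 of them in all, and 5 had a range of at least 2 (median 2.35), against 50.1% of all genes. WEE1, a mitotic kinase, peaked in U-HO1 at 9.95 and was lowest in L-1236 at 5.93. CDK6 was 10.68 in L-428 and 7.83 in L-1236. Without L-1236, WEE1 spanned 1.90 and CDK6 1.62, and 3 of the 8 targets reached 2, against 37.3% of all genes. BCL2, the survival factor named most often as a target, was 8.59 in SUP-HD1, 8.21 in KM-H2, 8.13 in HDLM-2, 7.93 in L-1236, 7.70 in U-HO1, 7.62 in L-540 and 6.01 in L-428. The genes most like DLEU2 in pattern were AKNA, an AT-hook factor (r = 0.99), MBTD1 (r = 0.99) and RXRB, a retinoid X receptor (r = 0.98), and 52 genes had r above 0.9. AKNA, MBTD1 and RXRB were each highest in U-HO1 and lowest in L-1236. Their r was taken at 1556821_x_at only, and not again without U-HO1 and L-1236.

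PVT1, the long noncoding RNA next to MYC that is known to support MYC protein, was below background in 1 line. At 1558290_a_at it read 9.31 in L-1236, 8.98 in U-HO1, 8.64 in HDLM-2, 8.53 in L-428, 8.48 in KM-H2, 7.27 in L-540 and 4.01 in SUP-HD1, where background was 4.49. The 5 upper lines were not apart from their neighbours, L-540 was 1.21 below KM-H2 and SUP-HD1 lay 3.26 below L-540. Raised to its background, SUP-HD1 was at least 4.82 below L-1236, and without SUP-HD1 the span was 2.04. At 222087_at SUP-HD1 was also below background, at 3.82, but there only HDLM-2 (6.02), L-540 (5.47) and L-428 (4.77) exceeded background. The other 3 probe sets were below background in all lines.

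**Figure D4:**
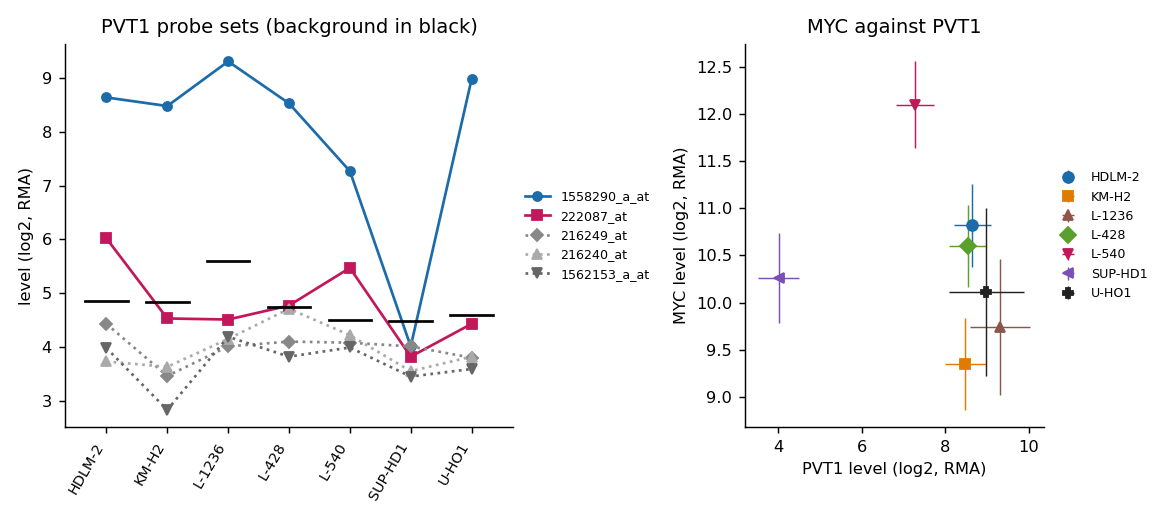
Left, level (log2, RMA) of each of the 5 PVT1 probe sets in each line, with black ticks at the background of the array. Right, MYC against PVT1 at 1558290_a_at, 1 point per line with bars of 1 SD between probe sets, where SUP-HD1 has PVT1 at 4.01 and MYC at 10.26.

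MYC itself was not low in SUP-HD1. Its level there, 10.26, ranked in the middle of the lines, and L-540 combined the highest MYC level (12.10) with the second lowest PVT1 level. PVT1 and MYC had r = -0.20 (exact p = 0.592, or 0.846 after adjustment) and rho = -0.32 (exact p = 0.498), and without SUP-HD1 and L-540 r was -0.22.

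GAS5, a host of C/D box snoRNAs whose RNA accumulates when growth stops, was high in all lines and varied little. At 224741_x_at it read 12.55 in KM-H2, 12.46 in SUP-HD1, 12 in L-1236, 11.89 in L-540, 11.74 in U-HO1, 11.62 in L-428 and 11.48 in HDLM-2, a span of 1.07 or 2.1-fold. A smaller range was found in 10.5% of genes. No neighbours in this order differed beyond their spread, and only HDLM-2 and L-428 were apart from KM-H2. Still, SUP-HD1 and KM-H2 exceeded the median of the other lines at all 4 bright probe sets, SUP-HD1 by 0.29 to 1.06 and KM-H2 by 0.19 to 0.73, and HDLM-2 was below it at all 4, with differences of -1.08 to -0.46. The fifth probe set, 1560402_at, exceeded background in 3 lines, with SUP-HD1 highest at 5.33.

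Other snoRNA host genes were as steadily present, since all 11 exceeded background and 10 did so in every line, with a median range of 1.94. L-1236 was the lowest line for 9 of them, all but ZFAS1 and SNHG3 (below background in L-1236), and by reading for 28.9% of all genes. A range of at least 2 was reached by 4 of 11, against 50.1%, and without L-1236 by 1 of 11, against 37.3%. SNHG5 differed most, with 12.49 in L-428 and 8.06 in L-1236, followed by EPB41L4A-AS1, with 9.79 in U-HO1 and 7.50 in L-1236. SNHG7 and SNHG12 spanned 2.06 and 2.04. Without L-1236, SNHG5 spanned 3.08, SNHG7 1.85, SNHG12 1.29 and EPB41L4A-AS1 1.24. The high background of L-1236 and its 8622 genes above background stand beside these values, and their part was not tested. SNHG1 was between 10.53 in SUP-HD1 and 9.54 in L-1236, and ZFAS1 between 12.44 in L-540 and 10.50 in HDLM-2. Their relations with GAS5 had r = 0.14 for SNHG1 (exact p = 0.781, or 0.846 after adjustment, rho = 0.21, exact p = 0.662) and r = 0.12 for ZFAS1 (exact p = 0.789, or 0.846 after adjustment, rho = 0.29, exact p = 0.556). Without KM-H2 and SUP-HD1, r was -0.44 for SNHG1 and 0.71 for ZFAS1.

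NEAT1 and MALAT1 are neighbouring genes for RNAs that stay in the nucleus. NEAT1 is the scaffold of paraspeckles and MALAT1 accumulates in splicing speckles. L-540 was the highest line for both, at all 12 probe sets of MALAT1 (tied with U-HO1 at 226675_s_at, where both read 8.84) and at all 8 probe sets of NEAT1 that exceeded background in any line. MALAT1 at 1558678_s_at was 12 in L-540, 11.26 in HDLM-2, 10.44 in L-1236, 10.33 in SUP-HD1, 10.25 in KM-H2, 9.56 in L-428 and 9.44 in U-HO1. L-540 was apart from HDLM-2 by 0.74 and from U-HO1 by 2.56, or 5.9-fold. Over the 12 probe sets L-540 led the next line by 0.65 in the median, and HDLM-2 was the runner-up at 8 of them. L-428 was below the median of the other lines at all 12, with a median difference of -0.73.

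NEAT1 at 234989_at was 11.26 in L-540, 10.84 in KM-H2, 9.76 in HDLM-2, 9.04 in L-428, 8.65 in SUP-HD1, 8.21 in L-1236 and 7.68 in U-HO1. L-540 and KM-H2 were not apart from each other, and both were apart from HDLM-2. The span of 3.58, 12-fold, exceeded that of 85.0% of genes. KM-H2 was second at 234989_at, 225239_at, 227062_at and 238320_at, with 10.84, 9.10, 8.88 and 9.12, but stood lower at 224566_at (8.94) and 224565_at (8.81), where L-1236 read 10.09 and 9.26. At 225239_at and 238320_at the same L-1236 read 5.11 and 5.34, below its background. The last probe set, 220983_s_at, was below background in every line.

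**Figure D5:**
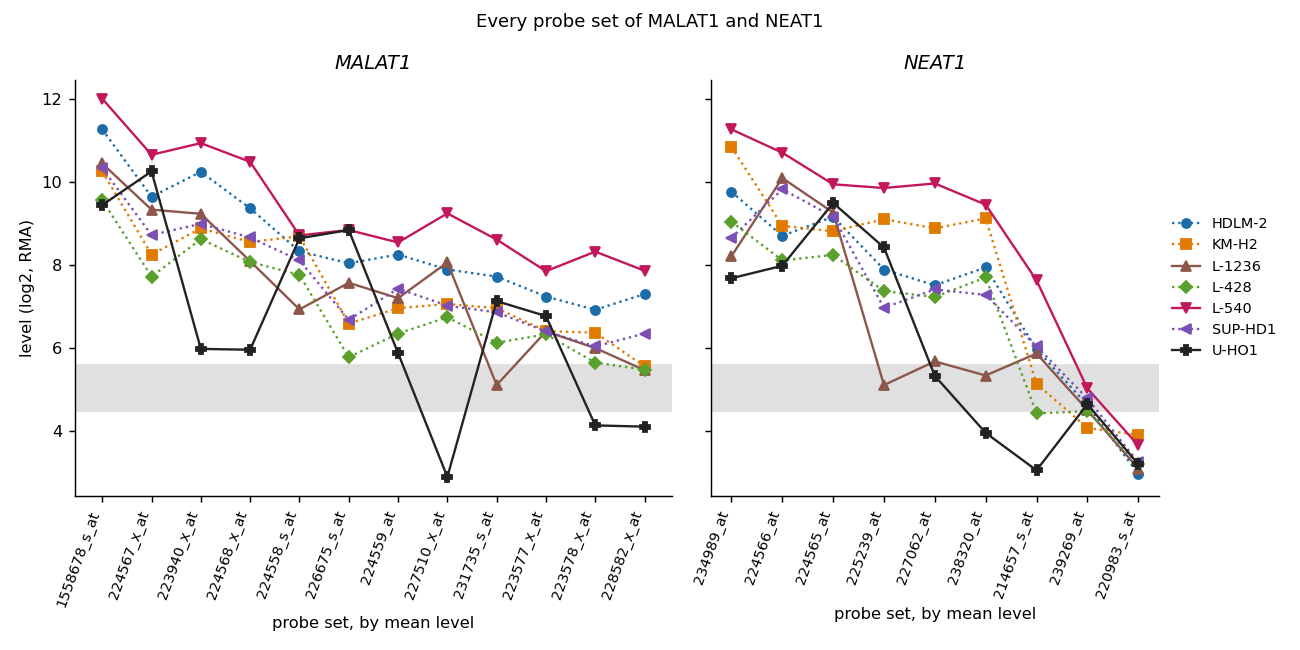
Level (log2, RMA) of each line at every probe set of MALAT1 and NEAT1, ordered by mean level, with the background levels of the arrays as the grey band. L-540 runs along the top of both panels except at 220983_s_at, where all lines are below background, while U-HO1 moves between 10.25 at 224567_x_at and 2.90 at 227510_x_at of MALAT1.

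The place of U-HO1 changed with the probe set. For MALAT1 it was the lowest line at 7 of 12 probe sets and first or second at 2, and its distance from the median of the other lines ran between -4.57 and 1.71. At 227510_x_at it read 2.90, below background, against 9.24 in L-540 and 6.74 to 8.06 in the other 5 lines, and at 224567_x_at 10.25, against 10.65 in L-540 and 7.72 in L-428. The pairwise r between MALAT1 probe sets had a median of 0.57 over 7 lines, 0.89 without U-HO1 and 0.96 without U-HO1 and L-1236. For NEAT1 these medians were 0.54, 0.41 and 0.69. The 3′ excess of beta-actin and the 18S signal of U-HO1, given above, and the high background of L-1236 stand beside these values, and their part in them was not tested.

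NEAT1 and MALAT1 had r = 0.70 (exact p = 0.0827, or 0.248 after adjustment) and rho = 0.57 (exact p = 0.2, or 0.429 after adjustment), and r was 0.66 without L-540 and KM-H2. Read at the 7 bright NEAT1 probe sets in turn, r with MALAT1 lay between 0.34 and 0.91. The transcripts for the proteins that build paraspeckles on NEAT1 all exceeded background in every line. Of these 6, 1 had a range of at least 2, against 50.1% of all genes, and the median range was 1.36. PSPC1 peaked in U-HO1 at 8.35 and was lowest in L-1236 at 6.11. Without L-1236, PSPC1 spanned 0.77, and 0 of the 6 reached 2, against 37.3% of all genes. TARDBP spanned 1.54, SFPQ 1.38 and NONO 1.33, and none of these 4 was highest in L-540.

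H19 and MEG3, imprinted growth-restraining RNAs of embryonic tissues, were at or near background. H19 at 224646_x_at exceeded it in KM-H2 (5.20, background 4.84), L-428 (4.77, background 4.75) and U-HO1 (4.71, background 4.59) only, each time by less than the spread on that array. Its other probe set, 224997_x_at, exceeded background in L-1236 alone, with 5.85, against 2.88 to 3.66 in the other lines and a background of 5.59. The neighbour IGF2 was carried only by probe sets shared with INS-IGF2, so it gave no value per gene and no relation. One of these, 202409_at, read 6.57 in KM-H2 and 5.96 in U-HO1, both above background, and 2.72 to 3.90 elsewhere.

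MEG3 had 10 probe sets, and 8 were below background in every line. At 210794_s_at it read 5.31 in L-1236, below the background of that array, 5.25 in L-428, 5.16 in SUP-HD1, 4.93 in U-HO1, 4.60 in KM-H2, 4.58 in L-540 and 4.43 in HDLM-2. L-428, SUP-HD1, U-HO1 and L-540 were above background, and 242246_x_at exceeded it in SUP-HD1 alone, with 4.79. DLK1, the gene next to MEG3 that is active on the other parental copy, exceeded background only in SUP-HD1, at 4.58, and had r = 0.56 with MEG3 (exact p = 0.198, or 0.425 after adjustment), rho = 0.67 (exact p = 0.117) and r = 0.63 without HDLM-2 and L-1236, with most of these values below background. Among the imprinted partners, KCNQ1OT1 exceeded background in 4 lines, with 5.70 in L-1236 the highest, CDKN1C only in U-HO1, at 5.15, and MEG9 in no line.

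Other miRNA host genes were mostly low. Of 12 measured, 8 exceeded background in at least 1 line. Of these 8, 3 did so in all lines (MCM7, SMC4 and MIR210HG), against 47.2% of all genes, and 3 had a range of at least 2, against 50.1%. With values below background raised to it, this was 1 of 8, against 36.9% of all genes. MIR22HG was 6.90 in L-540, 5.50 in U-HO1, 4.51 in SUP-HD1 and below background in the other lines. MIR4435-2HG exceeded background in SUP-HD1 alone, at 5.98, CARMN was highest in KM-H2, at 5.47, and MIRLET7BHG in L-1236, at 5.91. Of 12 other long noncoding RNAs, all exceeded background in at least 1 line, 5 in all 7, against 47.2% of all genes, and 9 had a range of at least 2 (median 2.84), against 50.1%. After readings under background were set to background, 6 of 12 reached 2, against 36.9%. LINC-PINT, like PVT1, was below background in SUP-HD1 only, with 3.06 there, against 8.10 in L-540 and 6.05 to 7.66 in the other lines. MIAT was 9.06 in HDLM-2, 7.78 in L-540 and 7.75 in SUP-HD1 and at most 5.48 in the others. HOTAIR exceeded background in KM-H2 (6.87) and U-HO1 (4.93), and HCP5 was highest in SUP-HD1 (7.44) and below background in L-1236 (3.21) and U-HO1 (4.46).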

How the data were processed

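Total RNA of 7 HL cell lines was hybridised to 1 array per line. The deposited log2 values are the authors' RMA output, in which, by their account, background was corrected and arrays were quantile normalized. The deposited columns still differed in distribution, L-1236 having the highest median (4.46) and U-HO1 the lowest (4.29). RMA, affy and limma appear in the submitters' processing notes, without version. No centring over lines was applied to these levels. All value columns were used (0 unused).

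Symbols came from the platform annotation, updated through RefSeq gene identifiers, and 11777 of 54675 had no symbol. A gene was read at its probe set with the highest mean. For members and listed host genes, probe sets shared only with encoded small RNAs were accepted (for the listed host genes this was decided after the data were seen). For each relation, both Pearson's r and Spearman's rho had an exact permutation p, two-sided, from all 5040 pairings, with Benjamini-Hochberg adjustment over 15 pairs. The relation of H19 with IGF2 could not be run. A line stood apart when the ratio of its gap to the whole range exceeded Dixon's value of 0.568. Array signal over background, and not depth, limits precision.

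Named were all members at every probe set, the partners, up to 4 genes per list with the largest range, and the 3 genes most like each host. Genes named beyond this rule (among them SPI1, KCNRG, DLEU7, MEG9, MIR210HG, COL1A1, MS4A1, CD79B, LYZ, MPO, SNHG3 and TRAF1) were chosen after their values were seen. The members and lists were chosen with earlier results of these data known. Alternatives covered the probe set choice, normalization, background, range limit and each line left out. The removal of both L-1236 and U-HO1 for members, relations and lists, and the raising of values below background to it for the lists, were added after the data were seen. Procedures were tested on simulated data. Python 3 libraries numpy, pandas, scipy and matplotlib were used.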

Additional observations from a re-analysis of the deposited data

Results flagged for a closer look

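For 17 values, 1 line lay far from the other 6, by Dixon's ratio of its gap to the next line over the whole range. These were sought among member probe sets, array measures, relation partners and the up to 4 genes named per list. Chance alone gives such a gap in about 1 of 20 sets of values, and over all genes above background 12.4% had one. Among the 56 probe sets of the members there were 5. The share of 12.4% is for genes above background, each at its probe set with the highest mean. No share over all probe sets was taken, so the count of 5 has no like measure beside it. PVT1 at 1558290_a_at was low in SUP-HD1 (ratio 0.615). DLEU2 was high in U-HO1 at 1563229_at (ratio 0.799) and at 1569600_at (ratio 0.745), where U-HO1 read 4.35 and all lines were below background. MALAT1 at 227510_x_at was low in U-HO1 (ratio 0.606), and H19 at 224997_x_at was high in L-1236 (ratio 0.737).

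Among listed genes, U-HO1 was low for SOCS1 (ratio 0.641) and high for E2F2 (ratio 0.618). L-428 was low for BCL2 (ratio 0.624). L-1236 was low for PSPC1 (ratio 0.656) and CARMN (ratio 0.571). SUP-HD1 was high for MIR4435-2HG (ratio 0.601) and low for LINC-PINT (ratio 0.593), and KM-H2 was high for CD3D (ratio 0.877). Among array measures, L-1236 had the highest background (ratio 0.664) and the fewest genes above it (ratio 0.643), while U-HO1 had the largest 3′ excess of beta-actin (ratio 0.766) and the highest 18S signal (ratio 0.689).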

How the results depend on the processing

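Each line had 1 array, so order and size rest on single arrays and on the probe set read, and values below background have no order. No paired analysis was possible because each group holds 1 sample. Reading each gene at its most variable probe set gave a range of 1.79 for GAS5, 5.49 for NEAT1, 6.34 for MALAT1, 2.97 for H19 and 1.94 for MEG3, 3 members had a line that stood apart, and levels relative to the mean of the lines turned to 0.02 for NEAT1 in SUP-HD1, -0.70 and 0.05 for H19 in KM-H2 and L-540 and 0.04 for MEG3 in HDLM-2, while r was -0.20 for DLEU2 with SMC4 and -0.09 for MIR17HG with MCM7. With the mean of all probe sets, the range was 1.79 for MIR17HG, 1.42 for DLEU2, 1.59 for PVT1 and 2.63 for NEAT1, 3 members reached the limit of 2, PVT1 was -0.28 in KM-H2 and 0.14 in L-540, H19 was 0.00 in KM-H2, and r of PVT1 with MYC was 0.24. Without probe sets ending in _x_at or _s_at, the range was 2.59 for DLEU2, 1.79 for GAS5 and 1.94 for MEG3, and MEG3 in HDLM-2 was 0.04. Quantile normalization again gave r = 0.00 for MIR17HG with MYC and 0.05 with E2F1. Relative to the mean of the lines, it moved L-1236 from 0.79 to 1.36 for MIR17HG and from -0.12 to 0.49 for DLEU1. It also moved L-1236 from 0.04 to 0.53 for GAS5 and from -1.14 to -0.56 for NEAT1. DLEU2 in L-1236 stayed near its value, at -1.67. L-1236 then became the highest line for MIR17HG and GAS5, where KM-H2 had 1.03 and 0.50. Raising values to background gave DLEU2 a range of 2.97. Single-symbol probe sets gave 1.17 for MIR17HG and 0.97 for PVT1. A limit of 3 left 3254 genes, 3 members and 20 of 81 listed genes, and a limit of 1 gave 13328 genes and 77 listed genes, against 7273 and 46 at a limit of 2. Relative to the median of the lines, PVT1 was -0.05 in KM-H2 and 0.00 in L-428. Without L-1236 and U-HO1, the range was 1.43 for DLEU2, 4.63 for PVT1 and 2.61 for NEAT1, 4302 genes and 24 listed genes reached 2, and r of MIR17HG with MCM7 was -0.08. The causes were not tested.

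With each line left out in turn, the range of MIR155HG was 1.02 (without HDLM-2) to 2.12, that of DLEU2 2.33 (without U-HO1) to 3.82, that of PVT1 2.04 (without SUP-HD1) to 5.30 and that of MALAT1 1.82 (without L-540) to 2.56. PVT1 lay at -0.06 to 0.83 in KM-H2 and -0.01 to 0.88 in L-428. The value of r ran over -0.67 to 0.37 for MIR17HG with MYC, -0.50 to 0.22 with E2F1, -0.14 to 0.69 with MCM7, -0.39 to 0.04 for MIR155HG with MIR17HG, -0.11 to 0.34 for GAS5 with SNHG1 and -0.29 to 0.28 with ZFAS1. No relation passed an adjusted p of 0.05 under any of these alternatives, where the lowest was 0.0833, for DLEU2 with TRIM13. The other alternatives kept 438 of 476 member levels and 57 of 75 ranges within the spread, but part of this tally was fixed beforehand. MIR155HG and DLEU1 have 1 probe set each, so a choice among probe sets could not change them. For MIR17HG, DLEU2 and PVT1 the most variable probe set was the one already read.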
